A study of Mus musculus with 2931 samples.

Results

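A set of 7 genes that set how readily blood clots on the vessel wall were followed across the endothelium of the developing mouse lung: Vwf, F8, Thbd, Procr, Tfpi, F2r and F3. They were taken by symbol from a table of 18072 genes of 2931 sequenced single cells, all labelled as endothelial cells (EC), which line vessels, and all 7 of 7 were found. The cells came from the distal lung of 10 mouse names in 5 groups, each with 1 female and 1 male mouse: mice kept in normal air at E18.5 (embryonic day), P1, P7 or P21 (days after birth), and mice of P7 kept in raised oxygen, called hyperoxia. The labels give no strain, genotype or oxygen level, and do not tell if animals were pooled under 1 mouse name. Each cell was sequenced in its own plate well as a library cut with the Tn5 transposase, and the value is the number of reads per gene.

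As background, endothelium keeps blood fluid by balancing factors that start or carry clotting against factors that stop it. Tissue factor, the product of F3, starts clotting when it meets plasma factor VII, and the tissue factor pathway inhibitor made from Tfpi blocks that step. Thrombin, the enzyme that makes fibrin, is redirected by thrombomodulin (Thbd) to activate protein C, which the endothelial protein C receptor (Procr) presents to it, and activated protein C cuts down further thrombin formation. Von Willebrand factor (Vwf) is stored in endothelial granules, tethers platelets and carries factor VIII (F8) in plasma, while the protease-activated receptor 1 (F2r) lets cells sense thrombin. Large vessels are known to store more von Willebrand factor than the alveolar capillaries, where thrombomodulin is abundant.

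The RefSeq table of promoters on GRCm38.p6 has an entry for F8, Procr, Tfpi, F2r and F3, while Vwf and Thbd were not matched. Only Procr, F2r and F3 were searched. Tfpi was left out because it has 2 entries, and F8 because its entry held too few bases before the annotated starts. The 3 windows below belong to a venous member (Procr), a widely read one (F2r) and one that was hardly read (F3). Each holds 1 match to the letters of the AP-1 motif (TGAGTCA, or TGACTCA on the other strand), which are in capitals. The Procr window is chr2:155750967-155751116 on the plus strand, the F2r window is chr13:95618488-95618716 on the minus strand, and the F3 window is chr3:121723287-121723536 on the plus strand, each written 5′ to 3′ on the strand of its gene.
Procr: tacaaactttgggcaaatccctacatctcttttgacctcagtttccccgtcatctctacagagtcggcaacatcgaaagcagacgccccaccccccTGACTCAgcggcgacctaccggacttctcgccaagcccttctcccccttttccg
F2r: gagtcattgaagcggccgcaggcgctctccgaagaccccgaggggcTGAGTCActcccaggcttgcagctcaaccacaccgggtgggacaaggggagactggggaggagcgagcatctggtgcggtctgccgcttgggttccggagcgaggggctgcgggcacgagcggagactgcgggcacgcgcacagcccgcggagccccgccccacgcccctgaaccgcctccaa
F3: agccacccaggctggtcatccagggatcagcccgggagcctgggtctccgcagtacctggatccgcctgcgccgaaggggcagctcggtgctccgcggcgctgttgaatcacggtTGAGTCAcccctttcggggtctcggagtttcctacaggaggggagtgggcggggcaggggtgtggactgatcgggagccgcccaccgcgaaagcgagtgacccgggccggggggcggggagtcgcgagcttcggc
Among 32851 RefSeq promoter windows cut to the same length, 2.52% held an AP-1 match at the length of the Procr window, 4.16% at that of F2r and 4.46% at that of F3. The letters CCACCC of the KLF motif, or GGGTGG, had 1 match in each window, and 16.6%, 25.9% and 28.1% of windows of those lengths held them. The letters GGGCGG of the SP motif, or CCGCCC, had 0 matches in Procr, 1 in F2r and 3 in F3 (16.7%, 29.7% and 32.7% of windows). The letters GGAAGT of the ETS motif, or ACTTCC, were in none of the 3 windows (10.6%, 17.5% and 19.7% of windows). These motifs were chosen after the windows had been read, no match overlapped another in these windows, and a match is a string of letters and not a measured binding site.

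The table held between 42095 and 2967985 reads per cell, with a median of 621406, and between 56564316 reads (P7 male mouse) and 331392982 reads (P7 female mouse) per mouse in 212 to 359 cells. The submitters' subtype labels were used, and a single marker of each kind is given here. Car4 had 6300 CPM (reads of the gene per 1000000 reads) over the pooled Car4+ capillary cells, against 272 and 483 in early and late Car4- capillaries. Mki67 had 1313 CPM in proliferative EC, the venous gene Slc6a2 459 in venous EC and the lymphatic gene Prox1 543 in lymphatic EC. The arterial gene Gja5 had 347 and 574 CPM in arterial EC I and II. For the genes other than Car4, levels outside the named label are not given here. Arterial markers were also read in Car4- capillaries, as given further below. Sequencing runs were shared by only some mice. In the main sort, for the endothelial protein CD31, a run was shared by 3 females (E18.5, P1, P21) and another by 4 males (E18.5, P7 in air, P21, hyperoxia), while the other 3 mice had a run each. Sex, mouse and run therefore cannot be told apart within a group, and neither can run and age between P1 and P7.

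Reads were summed over the cells of a subtype in a mouse and scaled to CPM, and a value was used where the mouse had at least 8 such cells. The subtype labels were made from expression in the same cells, so levels across subtypes are given as a description with no test. The members differed widely in abundance. Thbd had 3144949 reads and a read in 2714 cells (92.6%), and Tfpi was read in 1313 cells (44.8%), F2r in 873 (29.8%), Vwf in 619 (21.1%) and Procr in 455 (15.5%). At the other end, F8 was read in 141 cells (4.81%), and F3 had 623 reads in 33 cells (1.13%). Scaled to exon length, the level of Thbd was 612 CPM per kilobase in venous EC and 605 in Car4+ capillaries, while that of Procr and Vwf in venous EC was 193 and 180.

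Vwf lies on chromosome 6 (125546774 to 125686679, plus strand, GENCODE M21 on GRCm38) and was a gene of large vessels. In venous EC its level in normal air was 1927 CPM in the female and 3083 in the male mouse at E18.5, 2309 and 1021 at P1, 2989 and 3143 at P7 and 5772 in the P21 female mouse, a mean of 2892 ± 1482 CPM (SD, n = 7 mice). Arterial EC I and II joined had 963 ± 589 CPM (n = 6), from 329 to 1770. Every venous value but that of the P1 male mouse lay above this joined arterial range. Arterial EC I alone reached 2384 CPM in the P1 male mouse, above the venous values of the E18.5 female and both P1 mice. Late Car4- capillaries followed with 257 ± 288 CPM (n = 5, 0 to 749), proliferative EC with 69.5 ± 67.5 (n = 6), early Car4- capillaries with 34.7 ± 12.7 (n = 4) and nonproliferative embryonic EC with 18.3 ± 8.12 (n = 2). The neighbours among these lower levels overlapped in their mice. Lymphatic EC had 4.20 ± 5.13 CPM (n = 3) and Car4+ capillaries 0.522 ± 1.15 (n = 6), with no Car4+ value above 2.87.

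Within the same mouse, venous EC had 84.0 times the Vwf level of Car4- capillaries (mean log2 ratio 6.39 ± 2.25, SD, higher in 6 of 6 mice) and arterial EC 40.8 times (5.35 ± 1.98, 5 of 5 mice). Ratios are of CPM + 1, and the E18.5 female mouse had 0 Vwf reads in its 13 Car4- cells, so that its ratio is set by the added 1. Without this mouse the venous ratio was 44.9 (5.49 ± 0.42, 5 of 5 mice) and the arterial one 24.2 (4.60 ± 1.19, 4 of 4). Car4+ capillaries had 0.0177 times the level of Car4- capillaries and were lower in 6 of 6 mice. The added 1 also weighs on this ratio, which understates the gap. Mean Car4+ levels were 0.0373 CPM at P1 and 0.0767 at P7, against 50.3 and 53.7 in Car4- capillaries. Venous EC had 2.79 times the arterial level (1.48 ± 1.26), and were higher in 5 of 6 mice. In the CD31 sort, venous cells made up 3.72% to 21.6% of the cells of a mouse, the P21 male mouse aside, and held 61.4% to 72.3% of its Vwf reads. In the P21 male mouse venous cells were 0.840% of the cells and held 33.9% of the reads. Platelets also contain Vwf transcript, and the summed level of 6 platelet markers (Pf4, Ppbp, Gp9, Itga2b, Gp1bb and Gp1ba) was 0 to 59.9 CPM in the venous sums and 0.0715 to 46.7 in the arterial sums. Pooled over venous cells in normal air, Pf4 had 0.818 CPM and Ppbp had 0, but these are only some of the 6 markers. Which markers gave the highest sum is not given here, and how far platelet transcript adds to the Vwf levels was not tested.

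F8, which spans 75172715 to 75382615 on the minus strand of chromosome X, was read in the largest share of cells in lymphatic EC (29.0% in normal air). Its level there was 55.2 CPM in the E18.5 male mouse and 33.7 and 11.2 in the female and male P1 mice. Venous EC had 7.91 ± 12.2 CPM (n = 7), and in the 3 mice with both classes the lymphatic level was 2.11 times the venous one (log2 ratio 1.08 ± 0.93) and higher in each. The mean of late Car4- capillaries, 71.7 ± 158 CPM (n = 5), came from the E18.5 female mouse alone, where 1 cell gave 100% of the F8 reads. Outside lymphatic and late Car4- cells the mean stayed below 10 CPM in the 6 subtypes with more than 1 mouse. Single values there still overlapped the lymphatic ones. Venous EC of the E18.5 male mouse had 34.5 CPM. In the P1 male mouse arterial EC I had 25.4 and Car4+ capillaries 11.7, both above its lymphatic value. The genes Gm6039, Gm8522 and Fundc2 overlap the span of F8 without sharing an exon, and no other member overlapped another annotated gene.

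Thbd (chromosome 2, 148404466 to 148408188, minus strand) was read in 98.9% of Car4+ and 95.1% of Car4- capillary cells in normal air. Its mean level was 2277 ± 1170 CPM in venous EC (n = 7), 2252 ± 622 in Car4+ capillaries (n = 6) and 1885 ± 1031 in early Car4- capillaries (n = 4), and these 3 did not differ beyond their spread. Late Car4- capillaries had 1192 ± 901 CPM (n = 5), with 210 and 354 in the P1 and P7 female mice and 1918 and 2214 at P21. Arterial EC were lower than Car4- capillaries in 5 of 5 mice, with a ratio of 0.374 (log2 -1.42 ± 1.00), and lower than venous EC in 6 of 6. Lymphatic EC had the lowest level, 212 ± 16.98 CPM (n = 3), or 0.165 and 0.0711 times that of Car4- capillaries in the female and the male P1 mouse, the 2 mice with both classes.

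Procr (chromosome 2, 155751117 to 155755471, plus strand) was concentrated in venous EC, where its level was 677 CPM in the female and 735 in the male mouse at E18.5, 383 and 280 at P1, 269 and 309 at P7 and 84.4 in the P21 female mouse. The E18.5 mice were the highest and the P21 mouse the lowest, and in the P21 mouse 93.2% of the Procr reads came from 1 of 13 cells. Venous EC had 44.7 times the level of Car4- capillaries in the same mouse (log2 5.48 ± 1.82, 6 of 6 mice), and 27.4 times (4.78 ± 0.63, 5 of 5) without the E18.5 female mouse, whose Car4- level was 0.315 CPM. Against arterial EC the ratio was 9.41 (3.23 ± 2.52, 6 of 6), and 4.81 (2.27 ± 0.94, 5 of 5) without the P7 female mouse, which had 0 arterial Procr reads. Arterial EC had 83.6 ± 60.1 CPM (n = 6), lymphatic EC 83.5 ± 23.4 (n = 3) and embryonic EC 60.8 ± 11.7 (n = 2), 3 levels within their spread of each other. In capillaries the level was 10.97 ± 4.63 CPM (early Car4-, n = 4), 2.65 ± 4.00 (late Car4-, n = 5) and 0.0183 ± 0.0344 (Car4+, n = 6).

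Tfpi (chromosome 2, 84432855 to 84476775, minus strand) had a flatter profile, with means from 20.6 CPM in arterial EC II (1 mouse) to 177 ± 65.4 in late Car4- capillaries (n = 5). Embryonic EC had 154 ± 23.4 CPM (n = 2), venous EC 79.2 ± 38.0 (n = 7) and Car4+ capillaries 70.2 ± 36.0 (n = 6). Arterial EC had 0.190 times the level of Car4- capillaries (log2 -2.40 ± 1.97) and were lower in 5 of 5 mice. Without the P7 male mouse, which had 0.379 CPM in 10 arterial cells, the ratio was 0.345 (-1.54 ± 0.43, lower in 4 of 4). Car4+ capillaries had 0.644 times (log2 -0.64 ± 0.55) and were lower in 6 of 6. Its opponent F3 (chromosome 3, 121723537 to 121735048, plus strand) was close to absent, with means below 0.14 CPM in 7 of the 9 subtypes. The exceptions rest on few cells: 1 cell of the E18.5 male mouse gave the 17.6 CPM of its lymphatic EC, and 87.2% of the 5.91 CPM of proliferative EC in the P7 female mouse came from 1 cell.

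F2r (chromosome 13, 95601803 to 95618487, minus strand) was spread over all subtypes. Its mean level was 78.7 ± 56.5 CPM in arterial EC I (n = 5), 65.0 ± 24.3 in Car4+ capillaries (n = 6), 61.0 ± 44.2 in lymphatic EC (n = 3) and 19.3 ± 13.7 in late Car4- capillaries (n = 5), and most neighbours in the order overlapped. Against Car4- capillaries of the same mouse, Car4+ capillaries had 1.81 times the F2r level (log2 0.85 ± 0.40) and were higher in 6 of 6 mice, where Vwf, Procr and Tfpi were lower in 6 of 6.

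**Figure D1:**
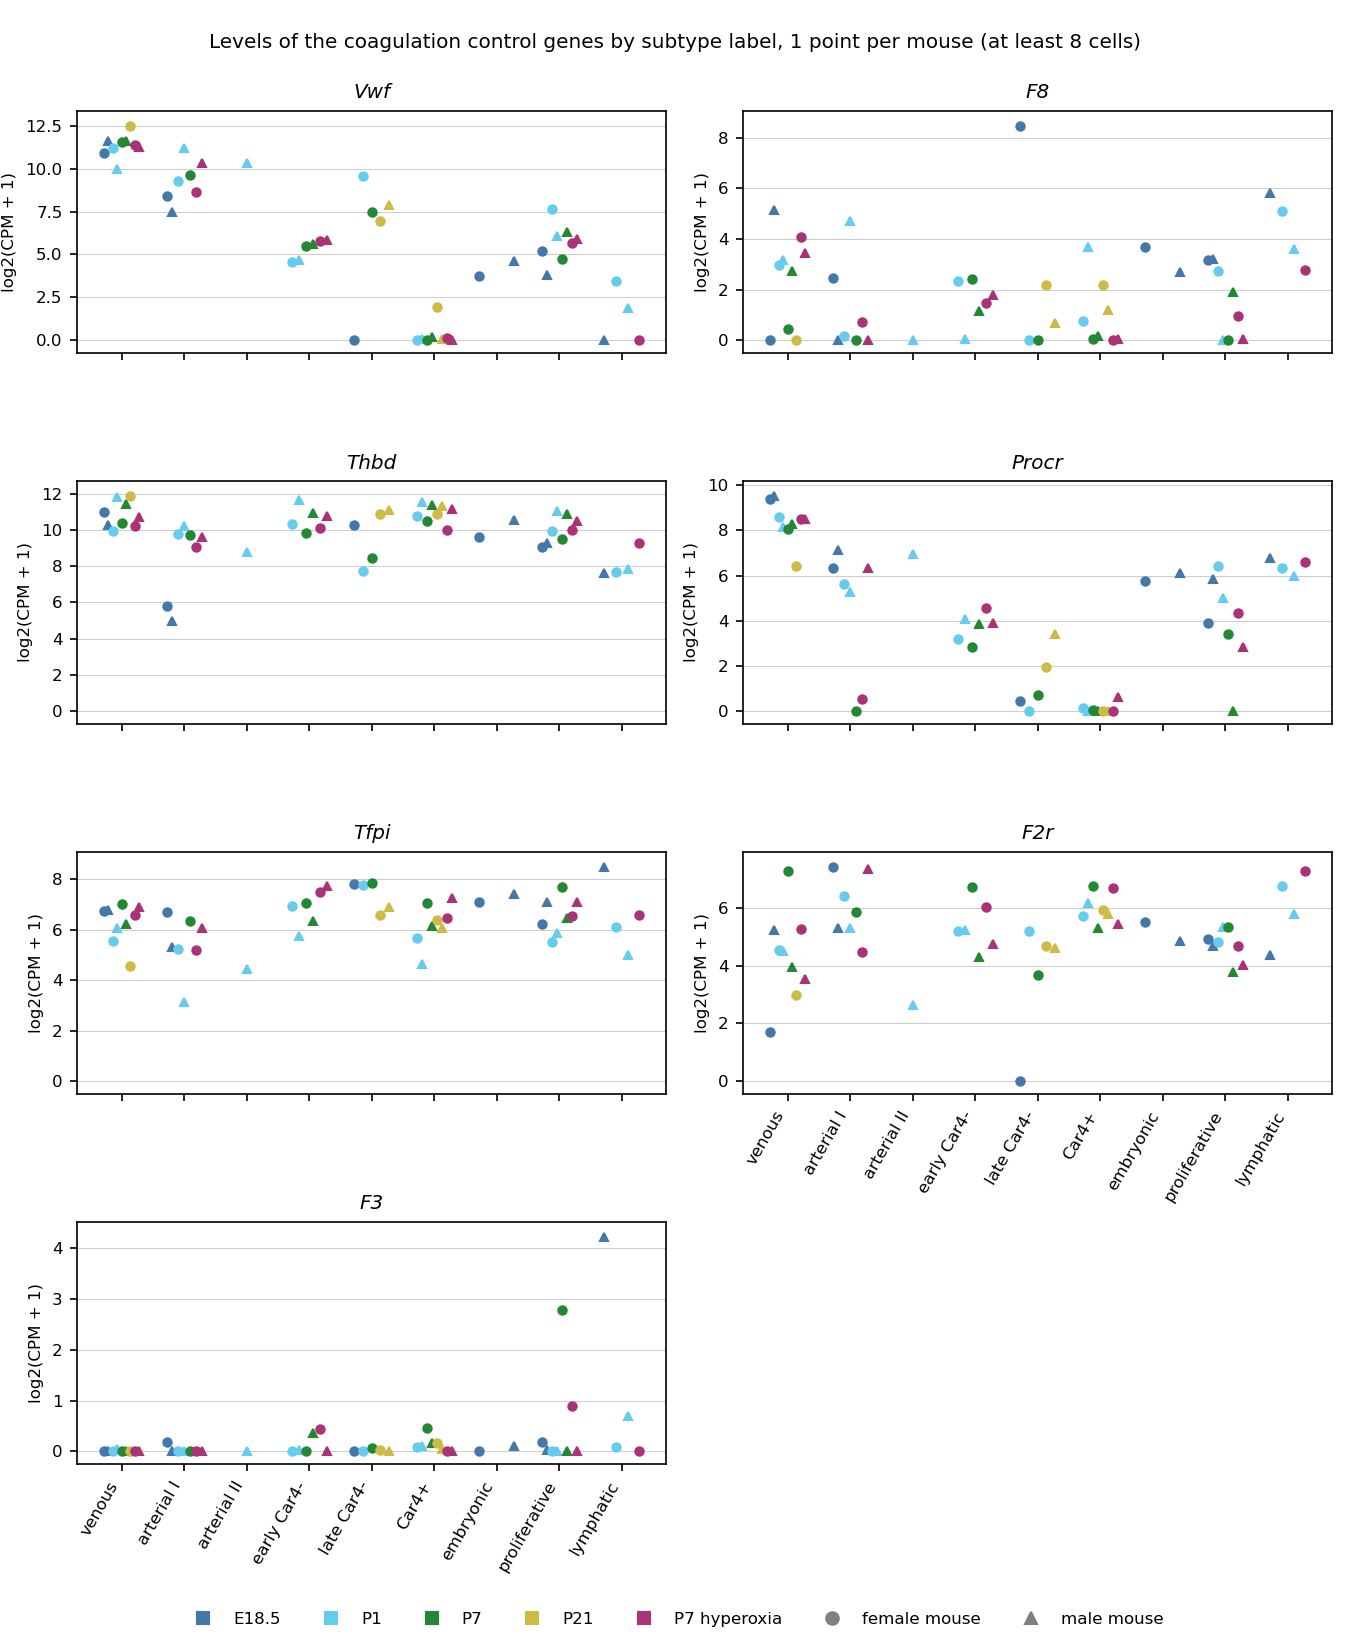
Level of each gene, as log2(CPM + 1) on the y axis, by subtype label on the x axis, with 1 point per mouse with at least 8 cells, colours for the age and treatment and shapes for the sex of the mouse. Vwf and Procr are highest in venous EC. The F8 values of lymphatic EC are overlapped by single values of venous EC, arterial EC I and Car4+ capillaries, and 1 late Car4- value from a single cell lies above them. Thbd has its lowest means in lymphatic and arterial EC, and some late Car4- values are also low.

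To compare shares of cells across depths, each cell was thinned to 50000 reads, with 11 shallower cells left out, and 95% exact intervals cover counting error only (copies made by PCR are not independent molecules). In normal air Vwf was read in 145 of 148 venous cells (98.0%, 94.2% to 99.6%), in 93.9% of arterial EC II, in 56.5% of arterial EC I in 56 of 560 early Car4- cells and in 13.4% of late ones. Car4+ capillaries, which are known to lack it, had a read in 0.362% of 276 cells after thinning and in 4.35% before. Procr was read in 77.7% of venous cells (70.1% to 84.1%), 54.5% of arterial EC II, 45.2% of lymphatic EC and 18.8% of arterial EC I. It was read in 0 of 276 Car4+ cells, where 3 cells would be 1.09% and the exact upper bound is 1.33% of cells with a read, and in 1.09% of them before thinning. The share of lymphatic cells with F8 was 24.2% (14.2% to 36.7%), against 1.30% to 9.09% in the other subtypes. F3 was read in 6 of 2392 cells (0.251%).

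Thbd was read in 98.2% of Car4+, 98.0% of early Car4- and 97.3% of venous cells, in 87.6% of late Car4- cells and in 43.5% of lymphatic cells. The shares with Tfpi ran from 12.1% in arterial EC II to 43.5% in lymphatic EC, and those with F2r from 10.9% in late Car4- capillaries to 45.2% in lymphatic EC. Transcripts of both Procr and Thbd were read in 113 of 148 venous cells, and Thbd was read in 98.3% of the cells with a Procr read and in 93.9% of those without. Among venous cells with a Procr read, 49.6% also had a Tfpi read, against 15.2% of those without, over cells pooled across mice and ages. Early Car4-, embryonic, proliferative and lymphatic cells had the same direction. Arterial EC I and II joined (12.9% against 19.7%) and late Car4- capillaries (16.7% against 18.8%) had the other. Pooled ages and mice cannot be told apart from a link within cells.

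**Figure D2:**
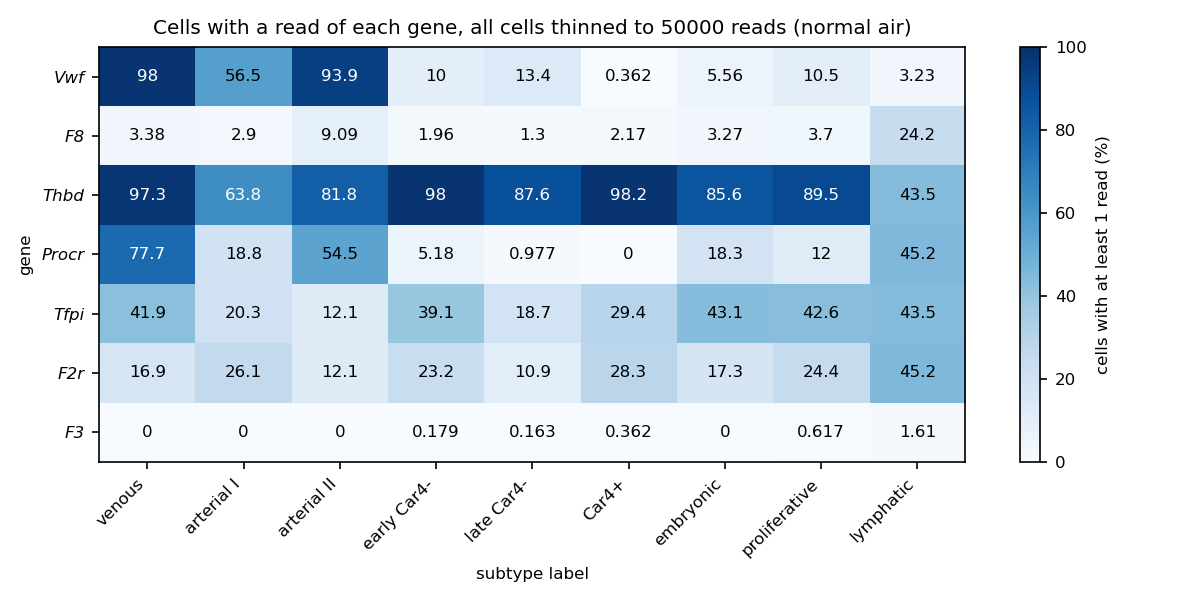
Percentage of cells with at least 1 read of each gene (rows) in each subtype (columns, normal air) after thinning to 50000 reads, printed in each cell and shaded from 0 to 100. The venous column has 98.0 for Vwf, 77.7 for Procr and 97.3 for Thbd, and the Car4+ column has 0.362, 0 and 98.2.

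The patterns over the 39 normal-air sums of a mouse and a subtype were compared with those of 9087 genes by Pearson's r of log2(CPM + 1). The sums share mice and differ in depth, so r is a description. The genes most like Vwf were Adgrg6 (r = 0.89), Ltbp1 (0.88) and Ptprb (0.85). The ones most like Procr were Fabp5 (0.85), Arhgdib (0.80) and Cpe (0.80), and those most like Thbd were Edil3 (0.75), Ripply3 (0.74) and Adcy4 (0.72). The remaining members had looser neighbours: Tsr1 (0.71), Dennd2a (0.65) and Sept1 (0.64) for F8, Yipf5 (0.66), Luc7l3 (0.65) and Atxn10 (0.64) for Tfpi, Cd40 (0.70), Fbxw11 (0.70) and Mlxip (0.68) for F2r, and Ptx3 (0.54), Bub1b (0.53) and Cdca5 (0.52) for F3. Among the members themselves the closest pair was Vwf and Procr (r = 0.58).

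Change with age and with hyperoxia was tested on the sums per mouse in 5 classes, in which early and late Car4- capillaries were joined, as were arterial EC I and II. The test was the quasi-likelihood test of edgeR with Benjamini-Hochberg adjustment over all genes of the class, and genes with an adjusted p under 0.05 were called. No member was called in any of the 21 comparisons. The labels do not say which mice came from separate litters, so the p-values measure only the spread between these mice. With 2 mice in a group few genes were called at all, and the share of all tested genes called is given beside each count. A second, weaker description is whether both mice of a group lay beyond both mice of the other, and the share of all genes for which that was so stands beside it.

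In Car4- capillaries 0 of 7 members were called for any age difference between P1, P7 and P21. The lowest adjusted p by edgeR was 0.163, and 0.348% of 14660 genes were called. At an unadjusted p under 0.05 were 1 member and 13.98% of genes. DESeq2 called 1 member there, Vwf. From P7 to P21 the Vwf level was 61.3 and 46.1 CPM in the female and male mouse at P7 and 121 and 229 at P21, a log2 difference of 1.85 ± 0.52 (SE, p = 0.00355, adjusted p = 0.226 by edgeR, and 0.0245 by DESeq2). Both P21 mice lay above both P7 mice, as was the case, in either direction, for 41.2% of all genes, and 0.266% of genes were called. The male mice of P7 and P21 shared a run, and in their CD31-sorted cells Vwf was 59.0 and 206 CPM. The share of thinned cells with a Vwf read was 10.7% and 8.85% at P7 and 13.97% and 13.8% at P21, and 26.5% and 25.6% of the P7 reads came from 1 cell, against 12.8% and 17.2% at P21.

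The labels inside the class also changed over this step: 162 of 206 and 114 of 116 Car4- cells were early at P7, and 268 of 272 and 265 of 268 were late at P21. Within the late label Vwf was 180 CPM in the P7 female mouse (44 cells, with 71.3% of the reads from 1 cell). This value lies between the 123 and 233 CPM of the P21 mice. Over all 5 mice with enough late cells in normal air, however, the level ran from 0 to 749 CPM. Whether the change of label accounts for the Vwf step was not tested. Markers of large vessels were measured in the same sums. The 4 venous markers summed to 32.0 and 58.1 CPM at P7 and 35.9 and 23.4 at P21, and the 5 arterial markers to 1349 and 1694 at P7 and 1567 and 1268 at P21. The 6 platelet markers summed to 18.8 and 156 CPM at P7 and to 33.8 and 5.57 at P21. In none of these lists did both P21 mice lie above both P7 mice. Whether cells or transcripts of these kinds added to the Vwf reads was not tested.

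The remaining 6 members of Car4- capillaries overlapped between P7 and P21. These sums also hold cells from other sorts, with a larger share at P21. In the male mice 111 of 116 cells were CD31-sorted at P7 and 184 of 268 at P21. In these CD31-sorted cells, which shared a run, Procr was 17.02 CPM at P7 and 1.75 at P21, beside 13.3 and 9.38 in the full sums. From P1 to P7 no member was called (0% of genes called, lowest adjusted p 0.598), no member was apart in both mice (40.2% of genes were), and DESeq2 called 0 members. Thbd was 1233 and 3266 CPM at P1, 863 and 2061 at P7 and 1922 and 2217 at P21, so that the gap between the mice of P1 or P7 was wider than the steps between ages.

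In Car4+ capillaries 4 of 7 members had enough reads to be tested (Vwf, Procr and F3 did not). For any age difference edgeR called 0 of 4 (0.0163% of 12284 genes called, lowest adjusted p 0.823). It also called 0 from P1 to P7 (0% called, lowest adjusted p 0.730) and from P7 to P21 (0.00814% called, lowest adjusted p 0.887). In this order, 0, 1 and 0 members were at an unadjusted p under 0.05, beside 6.228%, 6.285% and 5.243% of genes. DESeq2 also called 0 members in each. Tfpi was 49.6 and 23.6 CPM at P1 and 131 and 69.3 at P7, a log2 difference of 1.59 ± 0.72 (edgeR, p = 0.0474, adjusted p = 0.730). Both P7 mice were above both P1 mice for Tfpi and below them for F8 (0.713 and 11.7 CPM at P1, 0.0240 and 0.129 at P7), as for 31.5% of genes. At P21 both mice were above both P7 mice for F8 (3.51 and 1.28 CPM, with 98.9% and 89.7% of the reads from 1 cell), and 33.7% of genes were apart in that step. Thbd was steady, with 1804 and 3081 CPM at P1, 1474 and 2693 at P7 and 1882 and 2581 at P21.

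Proliferative EC were measured at E18.5, P1 and P7. For any age difference 0 of 7 members were called (0.0305% of 13102 genes, lowest adjusted p 0.642, and 0 members by DESeq2). By edgeR 1 member and 7.53% of genes were at an unadjusted p under 0.05. From E18.5 to P1 edgeR called 0 (0% of genes, lowest adjusted p 0.530), and DESeq2 called Vwf. In this step 2 members and 7.42% of genes were at an unadjusted p under 0.05 by edgeR. Vwf was 35.9 and 12.8 CPM at E18.5 and 198 and 67.2 at P1, a log2 difference of 2.49 ± 0.79 (p = 0.00954, adjusted p = 0.530 by edgeR and 0.0274 by DESeq2). Thbd was 532 and 635 CPM at E18.5 and 993 and 2126 at P1 (1.56 ± 0.59, adjusted p = 0.621 by edgeR). Both P1 mice were above both E18.5 mice for these 2 members and below them for F8 and Tfpi (72.8 and 136 CPM, then 44.7 and 57.7), which made 4 of 7 where 36.7% of genes did so. F3 is not counted, since 3 reads in the P1 sums would be 0.506 and 0.245 CPM, above both of its E18.5 values. The female mice of both ages shared a run, with Vwf at 36.4 and 198 CPM. The P1 sums hold 13 and 9 cells, 54.8% and 62.4% of their Vwf reads came from 1 cell, and the median gene lay at -0.16 on the log2 scale in this step.

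From P1 to P7 in proliferative EC no member was called (0% of genes, lowest adjusted p 0.505, and 0 at an unadjusted p under 0.05 or by DESeq2). Tfpi was 44.7 and 57.7 CPM at P1 and 206 and 85.9 at P7 (log2 1.36 ± 0.62), and Procr was 85.5 and 31.4 CPM at P1 and 9.47 and 0 at P7. These 2 of 7 members were apart in both mice, against 38.1% of genes.

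In venous EC 6 of 7 members were tested, all but F3. For any age difference 0 were called (0.00811% of 12326 genes, lowest adjusted p 0.588), and DESeq2 called Procr. By edgeR 1 member and 8.14% of genes were at an unadjusted p under 0.05. From E18.5 to P1 0 were called (0.0162% of genes, lowest adjusted p 0.548, and 0 members by DESeq2). In this step 1 member and 8.71% of genes were at an unadjusted p under 0.05 by edgeR. Procr was 677 and 735 CPM at E18.5 and 383 and 280 at P1, a log2 difference of -1.24 ± 0.47 (edgeR, p = 0.0208, adjusted p = 0.548), and in the run shared by the female mice it was 677 and 383. Tfpi was 107 and 109 CPM at E18.5 and 46.3 and 65.9 at P1 (-1.06 ± 0.69). Both P1 mice were below both E18.5 mice for these 2 of 6 members, where 37.2% of genes were apart, and the median gene lay at 0.18 on the log2 scale. From P1 to P7 0 of 6 were called (0% of genes, lowest adjusted p 1.0, 0 at an unadjusted p under 0.05, and 0 by DESeq2). The venous Vwf level of both P7 mice was above both P1 mice, as was that of Tfpi, and F8 was below, which made 3 of 6 beside 35.3% of genes.

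Arterial EC gave 0 of 6 tested members for any age difference (0.0167% of 11951 genes, lowest adjusted p 0.875, and 0 members by DESeq2). By edgeR 1 member and 4.74% of genes were at an unadjusted p under 0.05. From E18.5 to P1, 0 of 6 were called (0.0167% of genes, lowest adjusted p 0.967, and 0 members by DESeq2). In this step 2 members and 3.88% of genes were at an unadjusted p under 0.05 by edgeR. Vwf was 329 and 433 CPM at E18.5 and 829 and 1571 at P1 (log2 1.55 ± 0.64, p = 0.0318, adjusted p = 0.967 by edgeR). Thbd was 241 and 165 CPM at E18.5 and 747 and 637 at P1 (1.64 ± 0.53, p = 0.00912, adjusted p = 0.967 by edgeR). For both genes both P1 mice were above both E18.5 mice, as 32.7% of genes were apart, and the female mice, which shared a run, had the values given here as the first of each pair. In arterial EC I alone Thbd was 54.7 and 31.0 CPM at E18.5, with 40.9% and 78.5% of the reads from 1 cell, and 876 and 1197 at P1. From P1 to P7 0 of 6 were called (0% of genes, lowest adjusted p 0.997, 0 at an unadjusted p under 0.05, and 0 by DESeq2), and only F8 was apart, from 6.74 and 6.30 CPM to 0 in both mice (34.3% of genes were apart).

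Across birth, nonproliferative embryonic EC at E18.5 were set against Car4- capillaries at P1, so that age and subtype label differ together and cannot be told apart. None of 7 members was called (0.494% of 14967 genes, lowest adjusted p 0.406, and 0 members by DESeq2). By edgeR 2 members and 9.42% of genes were at an unadjusted p under 0.05. Procr was 52.5 and 69.0 CPM in the embryonic cells and 7.56 and 15.96 after birth, a log2 difference of -2.23 ± 0.81 (edgeR, p = 0.0152, adjusted p = 0.406). Vwf was 12.6 and 24.1 CPM before and 76.0 and 24.5 after birth (1.45 ± 0.55, adjusted p = 0.424), with the male mice nearly level. F8, Procr and Tfpi were lower and Vwf higher in both mice, 4 of 7 members, beside 34.6% of genes. In the female mice, which shared a run, Procr was 52.5 and 7.73 CPM and Vwf 12.6 and 77.2.

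**Figure D3:**
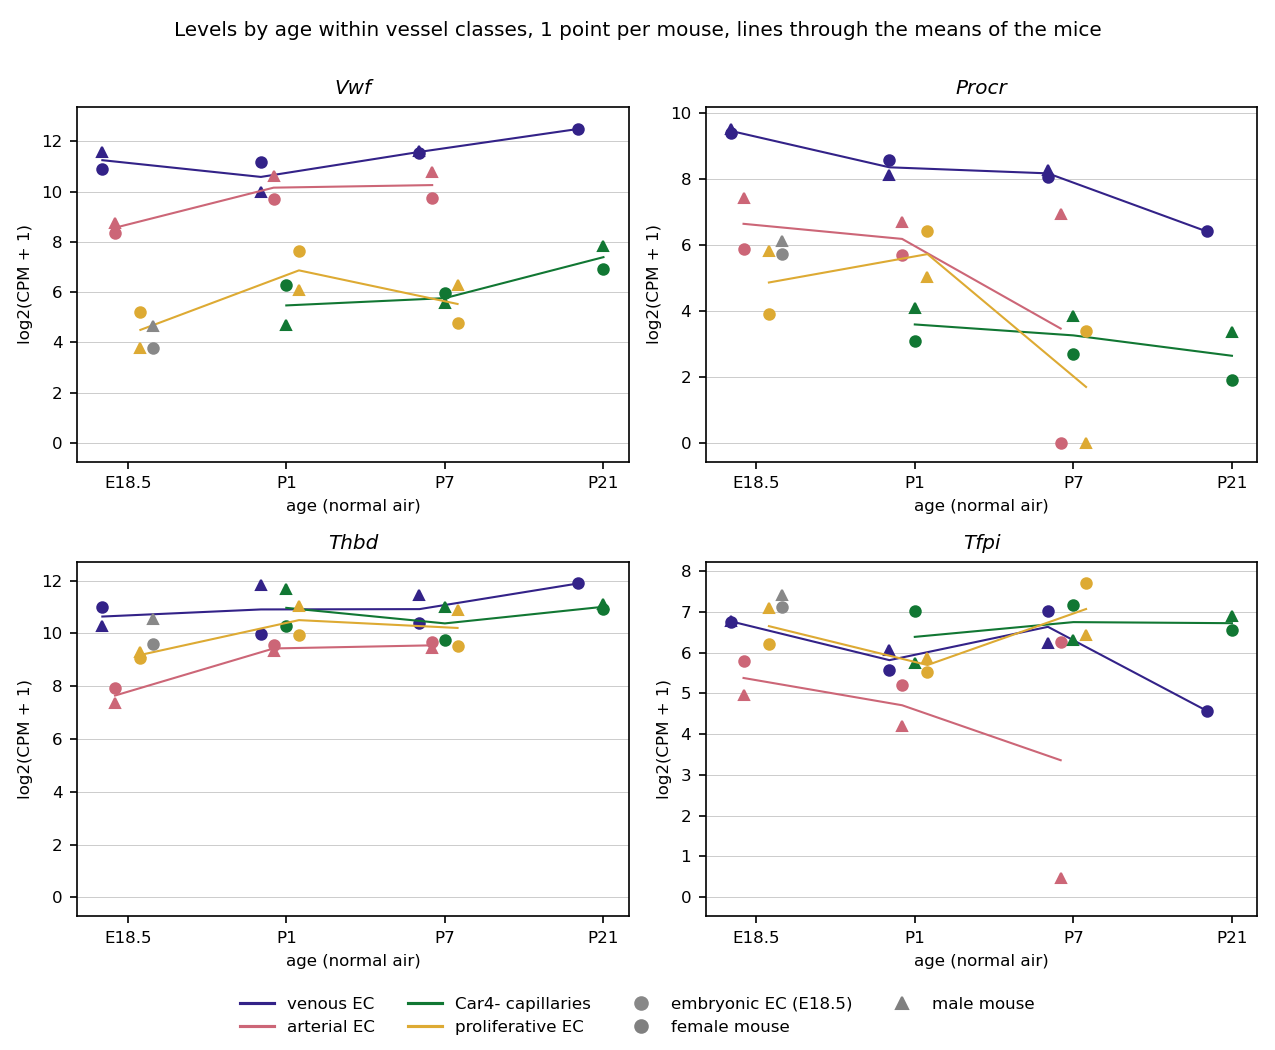
Levels of Vwf, Procr, Thbd and Tfpi, as log2(CPM + 1) on the y axis, by age in normal air on the x axis, with 1 point per mouse, shapes for sex, and lines through the means of the mice of a class. The venous line of Procr runs from 677 and 735 CPM at E18.5 down to 84.4 in the single mouse at P21. That P21 value comes mostly from 1 cell and was in no test. The arterial lines of Vwf and Thbd step up between E18.5 and P1. None of these genes was called by edgeR over E18.5, P1 and P7, while DESeq2 called venous Procr for any age difference.

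Mice of P7 after hyperoxia were set against those in normal air, and 0 members were called by edgeR or DESeq2 in any of the 5 classes. No member reached an unadjusted p under 0.05, and the lowest adjusted p of a member was 0.899 in Car4- capillaries, 0.898 in Car4+ capillaries and 1.0 in the other 3 classes. Few genes of any kind were called: 0.0136% in Car4- capillaries and 0% in Car4+ capillaries, proliferative, venous and arterial EC. In Car4- capillaries Tfpi was 144 and 78.8 CPM in normal air and 177 and 221 after hyperoxia, a log2 difference of 0.81 ± 0.44 (edgeR, adjusted p = 0.899), and 101 and 221 in the male mice of 1 run. Procr was 5.41 and 13.3 CPM in normal air and 22.6 and 13.5 after hyperoxia, and the male mice of 1 run had 17.02 and 13.5, the other direction. Both hyperoxia mice were higher for these 2 of 7 members, beside 33.8% of genes. Thbd was 863 and 2061 CPM in normal air and 1100 and 1750 after hyperoxia (log2 -0.05 ± 0.56).

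In venous EC Vwf was 2989 and 3143 CPM in normal air and 2618 and 2403 after hyperoxia (log2 -0.28 ± 0.49), and Procr was 269 and 309 CPM in normal air and 369 and 368 after it (0.36 ± 0.46). Vwf was lower and Procr and F8 were higher in both hyperoxia mice, 3 of 6 members, beside 34.1% of genes. In the male mice of 1 run Vwf was 3143 and 2403 CPM and Procr 309 and 368. In arterial EC Thbd was 809 and 693 CPM in normal air and 488 and 448 after hyperoxia (-0.64 ± 0.52), the 1 of 6 members apart in both mice (29.5% of genes were). No member was apart in proliferative EC (33% of genes) or among the 4 tested in Car4+ capillaries (32.3% of genes). The 10 cells that carry the label of proliferative venous EC came from the hyperoxia mice alone, 5 from each, which is under the minimum of 8 used elsewhere, and had 1648 and 1862 CPM of Vwf.

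**Figure D4:**
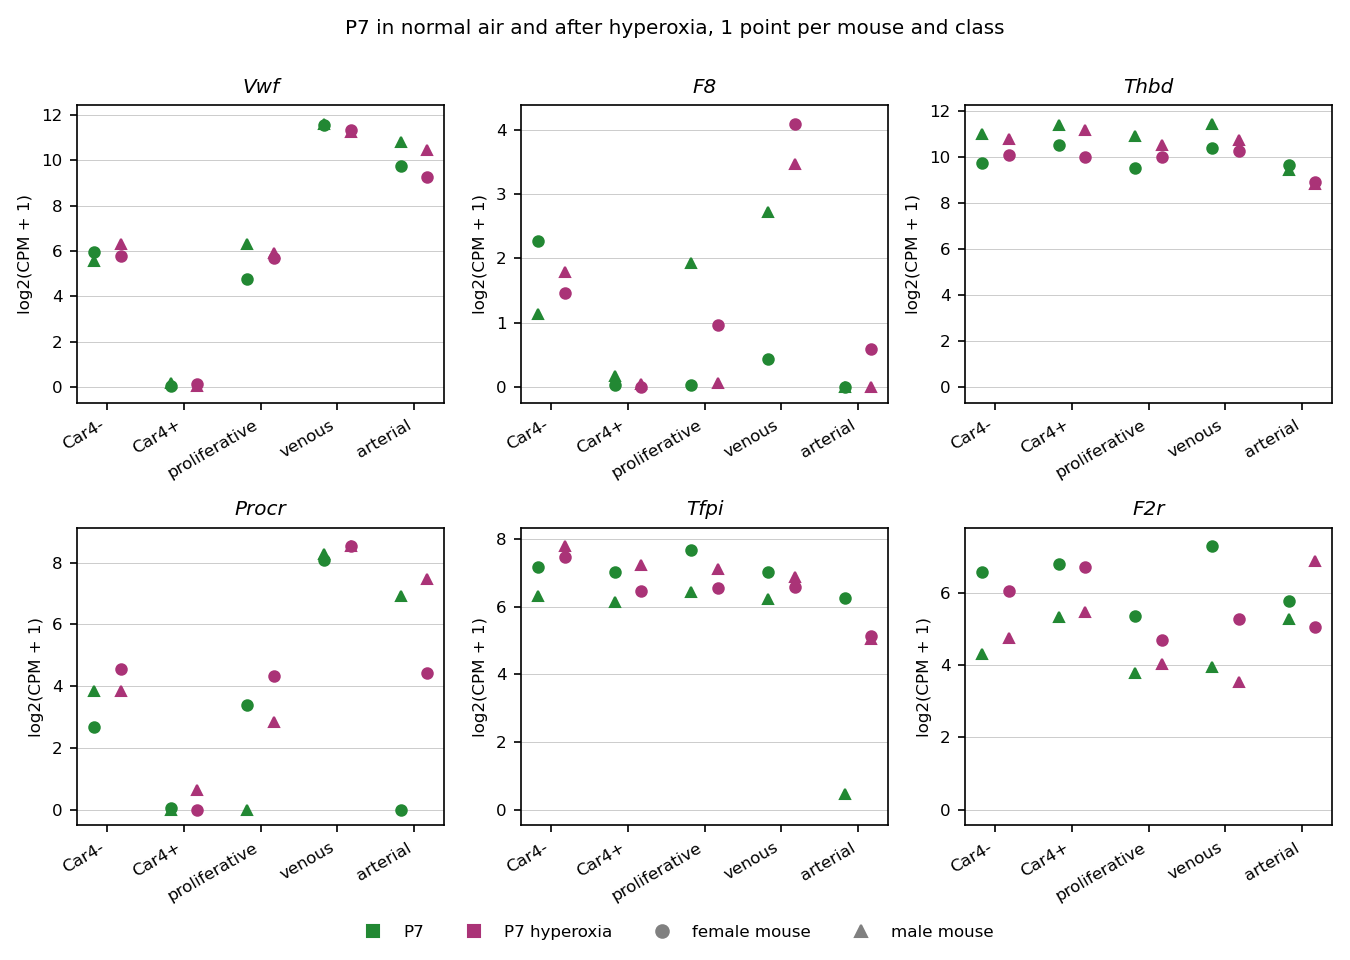
Levels of 6 of the 7 genes (F3 is left out for its few reads), as log2(CPM + 1) on the y axis, in 5 classes on the x axis at P7 in normal air and after hyperoxia, with 1 point per mouse and shapes for sex. In most pairs the points of both treatments overlap, and the venous Vwf points at 2989 and 3143 against 2618 and 2403 CPM show the size of a difference that was not called.

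A wider list of 37 haemostasis genes, with thrombin receptors, coagulation factors, anticoagulants, genes that handle VWF and factor VIII, the vitamin K cycle, heparan sulphate and platelet restraint, was read in the same way. Of these, 30 were in the table and all 30 had reads, while F11, F12, Fga, Fgb, Fgg, Proc and Serpina5 were not analysed here. Levels per exon length were averaged over the normal-air sums of a mouse and a subtype, each sum counting alike whatever its number of cells. The highest was that of Anxa5, an annexin that covers the phospholipid surface clotting needs (362 CPM per kilobase). Next were Vkorc1, the vitamin K epoxide reductase (76.8), and Mcfd2, which helps factors V and VIII leave the endoplasmic reticulum (50.2). By label, Anxa5 had its highest mean in lymphatic EC (1011 CPM). Mcfd2 had means of 277 ± 155 CPM in venous EC (n = 7) and 279 ± 249 in arterial EC I and II joined (n = 6), within their spread of each other.

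Of the list, only Hs3st1 was called in any of the 21 comparisons, from 17 to 27 tested genes each. Hs3st1 encodes a heparan sulphate 3-O-sulphotransferase, which makes the sites on heparan sulphate that bind antithrombin. Across birth it had 0 reads in the 302 embryonic cells of both E18.5 mice and 40.8 and 56.7 CPM in Car4- capillaries at P1. The P1 mean of 48.8 ± 11.2 CPM (n = 2) was at least 3784-fold higher than the 0.0129 CPM that 3 reads over the whole E18.5 group would give (edgeR, adjusted p = 1.8e-06), and the female mice, with 0 and 40.8 CPM, shared a run. In Car4- capillaries Hs3st1 was 34.7 and 42.6 CPM at P7 and 204 and 147 at P21 (log2 2.29 ± 0.41, edgeR, adjusted p = 0.0450). It was also called for any age difference there (edgeR, adjusted p = 0.0398). The labels changed from mostly early to mostly late over this step. In the P7 female mouse early cells had 38.8 CPM and late ones 6.35, and late cells at P21 had 207.6 and 144.5. Whether the change of label accounts for the Hs3st1 step was not tested. The call between P7 and P21 did not hold without either mouse of P7 (adjusted p 0.412 and 0.329 without the female and the male), of P21 (0.114 and 0.142) or of hyperoxia (0.0571 and 0.0517), nor with limma (0.0797) or with sex as a replicate block (0.0504). The birth call held in every alternative run.

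The other classes at E18.5 differed in Hs3st1: proliferative EC had 2.83 CPM in the female and 0 in the male mouse, arterial EC 17.1 and 0, venous EC 54.1 and 0, and lymphatic EC of the male mouse 95.6. Late Car4- capillaries of the E18.5 female mouse had 0.349 CPM (2 reads in 12 cells). In the P1 female mouse they had 0 reads in 21 cells, beside 44.0 CPM in early ones. Age and label therefore cannot be told apart in the Hs3st1 difference across birth. The venous value of the female mouse and the lymphatic value of the male mouse lay in or above the range of Car4- capillaries at P1. In normal air its mean was 198 ± 199 CPM in venous EC, 156 ± 90.3 in Car4+ capillaries, 141 ± 87.0 in lymphatic EC and 15.4 ± 19.04 in arterial EC. The whole list had a median log2 difference between E18.5 and P1 of 1.39 over 18 tested genes in venous EC (0.18 over all genes) and 1.11 over 17 in arterial EC (0.07 over all genes). In proliferative EC the same step had a list median of 0.14 over 22 genes (-0.16 over all genes), and the list median across birth was 0.24 over 27 genes (0.02 over all genes). In venous, arterial and proliferative EC 0 list genes were called in this step, and 3 in each were at an unadjusted p under 0.05 by edgeR. Of all genes, 8.71%, 3.88% and 7.42% were at that cut. Under hyperoxia the list median was between -0.13 and 0.07 in the 5 classes, with 0 called.

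**Figure D5:**
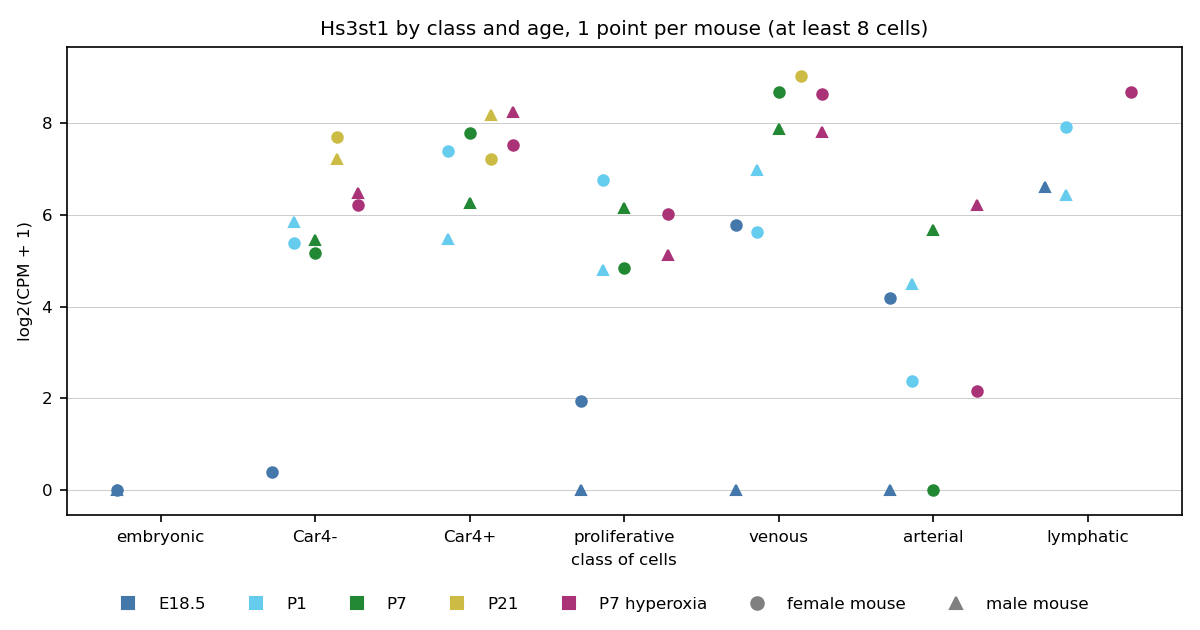
Level of Hs3st1, as log2(CPM + 1) on the y axis, by class of cells on the x axis, with 1 point per mouse with at least 8 cells, colours for age and treatment and shapes for sex. Both embryonic values are 0, and the P21 points of Car4- capillaries at 204 and 147 CPM lie above the P7 points at 34.7 and 42.6.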

How the data were processed

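RNA was measured in single cells of mouse distal lung, and the table the authors deposited holds raw read counts, 1 whole number for each gene in each cell, not normalized. Per the submitters' processing notes, STAR 2.5.2b and HTSeq 0.10 were used, and the build named there is GRCh38, a human assembly, although the symbols are those of mouse genes. Positions and exon lengths were therefore taken from GENCODE M21 on GRCm38, and whether counting used the strand is not given in the sources used here. Predicted, ribosomal and mitochondrial symbols are outside the table, so CPM are relative to the genes it holds.

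Reads were summed per mouse and class with Python 3.11.15 (pandas 2.3.3), using mice with at least 8 cells, and a class entered a comparison where both mice of each group did. The sums were tested with edgeR 4.0.16 in R 4.3.3 (TMM, filterByExpr, quasi-likelihood F test, all groups of a class in 1 model, Benjamini-Hochberg), a test checked on simulated data. Within-mouse ratios used log2(CPM + 1). Alternatives were DESeq2 1.42.0, RLE normalization, no filter on low counts, CD31-sorted cells alone, cells thinned to 50000 reads, limma 3.58.1 on mean CPM, sex as a replicate block, and leaving out each mouse. The numbers that pair mice across groups are their sexes, which mark no shared litter in the labels. The members, the wider list, the markers and the tests were chosen with earlier results of these data known. All 7 members are named, list genes where called or among the 3 highest per length, and the 3 genes of highest r per member among those with a mean of at least 10 CPM.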

Additional observations from a re-analysis of the deposited data

How the results depend on the processing

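The count of members called was 0 in all 21 comparisons with edgeR, with RLE normalization, without a filter on low counts, with CD31-sorted cells, with thinned cells, with limma and with sex as a replicate block. DESeq2 called 1 member in 4 of them: Vwf for any age difference and for P21 against P7 in Car4- capillaries and for P1 against E18.5 in proliferative EC, and Procr for any age difference in venous EC. Leaving out 1 mouse moved the count between 0 and 1. It was 1 without the P1 female mouse for any age difference in Car4- capillaries (Vwf) and for P1 against E18.5 in proliferative EC (Thbd, log2 2.08, adjusted p 0.0307). It was also 1 without the P7 male mouse in arterial EC for any age difference, P7 against P1 (Procr, log2 -13.05, adjusted p 0.0107) and hyperoxia (Procr, log2 13.5, adjusted p 0.00722), where the P7 female mouse left has 0 reads and is assumed to vary like the other groups. The cause was not tested.

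Of 1456 repeats of 97 log2 changes, 1344 stayed within the standard error, 107 moved beyond it, 5 became called and 128 changed sign. Of 518 repeats of 77 log2 ratios between subtypes, 503 stayed within the SD, 15 moved beyond it and 31 changed sign. Genes called over the whole table depended far more on the tool: edgeR and DESeq2 called 51 and 918 for any age in Car4- capillaries, 39 and 798 for P21 against P7 there, 2 and 227 under hyperoxia there, 0 and 643 for P1 against E18.5 in proliferative EC, 2 and 789 for it in venous EC and 74 and 639 across birth. Leaving out 1 mouse gave 0 to 1207 calls for P7 against P1 in proliferative EC. F3 and F8 had the fewest reads of the members, 623 and 12259 in all, and how far depth limits them was not tested.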

Other observations

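The female and male mice of the groups are given here with no test, since sex, mouse and run cannot be told apart and the classes share mice. Thbd was lower in the female than in the male mouse of 4 of 4 groups in Car4- capillaries (mean 1280 against 2323 CPM), in Car4+ capillaries (1545 against 2659) and in proliferative EC (820 against 1541). In those classes 4.89%, 3.39% and 6.07% of all tested genes were higher in the male mouse of every group. Venous EC had the same direction in 3 of 4 groups. In arterial EC Thbd was higher in the female mouse of 4 of 4 groups (571 against 486 CPM), as was Tfpi (50.2 against 19.97), where 8.86% of genes were. Vwf (654 against 1290 CPM) and Procr (32.1 against 142) were higher there in the male mouse of 4 of 4 groups, where 6.41% of genes were.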
